A study of Homo sapiens with 2 samples.

Results

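The regions described here are stretches of accessible chromatin that lie in the short gaps between neighbouring genes. A short gap was defined as 1 to 1000 bp of sequence, free of protein-coding genes, between the upper end of one protein-coding gene and the lower end of the next on chromosomes 1 to 22 and X (RefSeq, GRCh38.p14, the build called hg38). The 19974 coding genes left 2077 such gaps, bordered by 3807 genes and 729973 bp long in all. A region belonged to the set when it overlapped a gap by at least 1 bp. This held for 1254 of 98152 regions in the untreated library (1.28%) and for 1318 of 122399 in the lactate library (1.08%). No region touched several gaps. Overlapping regions of both libraries were merged into 1256 shared regions, of 86803 shared regions in all. The comparison set, called other gene-end regions, comprised regions within 1000 bp of an end of a coding gene and outside every short gap, 12534 and 14064 of them.

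Both libraries came from CAL27, an established human line of oral squamous cell carcinoma. One library was made from untreated cells and the other from cells given 10 mM lactate for 24 h, and no other agent or allele is named for either. Accessibility was measured by ATAC-seq, which exposes nuclei to the transposase Tn5, an enzyme that inserts sequencing adapters where DNA is not packed. The untreated library held 18248413 tags and the lactate library 15401276. With 1 library per group no difference between them has a replicate check, no test was possible, and a difference between cultures cannot be told apart from an effect of lactate. All intervals are 95% intervals of counting error alone. The input files are named as deduplicated, and any tags copied by PCR that remain are not independent molecules.

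Neighbouring genes can lie in 3 orders. In a divergent pair the genes point away from each other, so both start at the gap and can share one promoter; such bidirectional promoters are common in the human genome, often rich in CpG dinucleotides and poor in TATA boxes, and many serve housekeeping genes of DNA repair, mitochondria and translation. In a tandem pair one gene ends and the next starts at the gap. In a convergent pair both genes end there and the gap holds no start of either. Strand was taken from the RefSeq promoter table and was known for both genes at 1501 gaps, of which 770 were divergent, 387 tandem and 344 convergent. At the other 576 gaps it was not given for at least one gene. Divergent gaps were the shortest, with a median of 171.5 bp, against 374 bp for convergent and 479 bp for tandem gaps. The median over all gaps was 266 bp, with quartiles of 132 and 521 bp. A non-coding gene was listed inside 6.60% of the gaps.

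Several gap sequences follow, because the accessible region sits on this short stretch and both genes start from it. They were read from the RefSeq promoter windows, are printed from the plus strand, 5′ to 3′, and span the bases between the neighbouring genes. Capitals mark matches, on either strand, to the letters CCAAT (the box bound by NF-Y), CCGGAAG (ETS factors), TGACGTC (the cyclic AMP response element) and CACGTG (the E-box), while GC boxes are left in lower case. The first set shows textbook bidirectional pairs that were open in both libraries. It covers a tRNA synthetase with a mitochondrial ribosomal protein, a purine enzyme with a splicing cofactor, the cytosolic with the mitochondrial histidyl-tRNA synthetase, the mitochondrial chaperonin with its co-chaperonin, a mitochondrial deacylase with a proteasome subunit, and a pair of basement membrane collagen chains.
SARS2-MRPS12 at chr19:38930764-38930943: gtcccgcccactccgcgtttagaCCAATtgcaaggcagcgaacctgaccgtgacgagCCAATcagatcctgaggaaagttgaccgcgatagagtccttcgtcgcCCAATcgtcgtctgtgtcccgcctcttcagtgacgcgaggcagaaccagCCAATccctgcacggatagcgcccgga
GART-SON at chr21:33542894-33543037: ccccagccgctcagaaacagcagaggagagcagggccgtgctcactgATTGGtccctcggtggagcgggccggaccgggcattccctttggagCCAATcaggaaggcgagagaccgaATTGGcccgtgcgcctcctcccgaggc
HARS1-HARS2 at chr5:140691371-140691454: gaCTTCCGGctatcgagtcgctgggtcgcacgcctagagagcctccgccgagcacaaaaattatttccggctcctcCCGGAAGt
HSPD1-HSPE1 at chr2:197500275-197500378: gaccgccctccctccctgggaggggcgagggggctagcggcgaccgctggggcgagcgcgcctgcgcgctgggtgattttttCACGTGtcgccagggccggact
SIRT3-PSMD13 at chr11:236932-236975: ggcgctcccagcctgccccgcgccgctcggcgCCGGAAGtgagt
COL4A1-COL4A2 at chr13:110307158-110307283: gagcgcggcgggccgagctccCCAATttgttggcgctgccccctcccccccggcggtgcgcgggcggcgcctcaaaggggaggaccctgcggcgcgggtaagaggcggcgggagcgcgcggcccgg
The second set holds the gaps with the highest and the lowest relative height in the lactate library among those with at least 60 tags of both libraries together.
TTC13-ARV1 at chr1:230978862-230979093: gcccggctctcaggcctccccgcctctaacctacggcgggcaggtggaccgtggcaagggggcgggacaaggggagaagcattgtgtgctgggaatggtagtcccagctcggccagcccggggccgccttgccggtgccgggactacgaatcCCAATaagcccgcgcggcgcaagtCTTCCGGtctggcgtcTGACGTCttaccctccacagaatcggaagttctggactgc
ANKRA2-UTP15 at chr5:73565640-73565740: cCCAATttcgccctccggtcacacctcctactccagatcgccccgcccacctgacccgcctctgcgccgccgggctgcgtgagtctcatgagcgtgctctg
The third set holds the strongest region by fold enrichment listed in the lactate library alone and the strongest listed in the untreated library alone.
ALKBH1-SLIRP at chr14:77708024-77708070: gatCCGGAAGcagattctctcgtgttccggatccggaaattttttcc
DHX32-FANK1 at chr10:125896486-125896563: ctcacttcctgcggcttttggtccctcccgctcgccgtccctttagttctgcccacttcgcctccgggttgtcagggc

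The share of short gaps that were accessible differed with the order of the genes. A gap is called open where a region was listed over it. A region in both libraries covered part of 688 of 770 divergent gaps, 89.4% (87.0 to 91.4), of 221 of 387 tandem gaps, 57.1% (52.0 to 62.1), and of 19 of 344 convergent gaps, 5.52% (3.36 to 8.49). These intervals do not overlap. The gaps of unknown order stood between them, with 288 of 576, 50% (45.8 to 54.2). Over all 2077 gaps the share was 58.5%, or 1216 gaps.

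The strand is missing at all 62 gaps on chromosome 8, which therefore enters no result by gene order or motif. The share open was also counted outside genes whose neighbour is farther away. Gene starts that face a gap longer than 1000 bp were counted in a window of 172 bp, near the divergent median, placed just outside the start. Of 11813 such windows 46.8% (45.9 to 47.7) held a region in both libraries. In a window of 479 bp, the tandem median, the share was 48.3% (47.4 to 49.2), so tandem gaps exceeded starts at longer gaps by less than divergent gaps did. A divergent gap holds 2 gene starts and the other windows hold 1. Gene stops at longer gaps held a region in 3.05% (2.75 to 3.37) of 12010 windows of 374 bp, the convergent median. That interval overlaps the one for convergent gaps by a small margin.

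**Figure D1:**
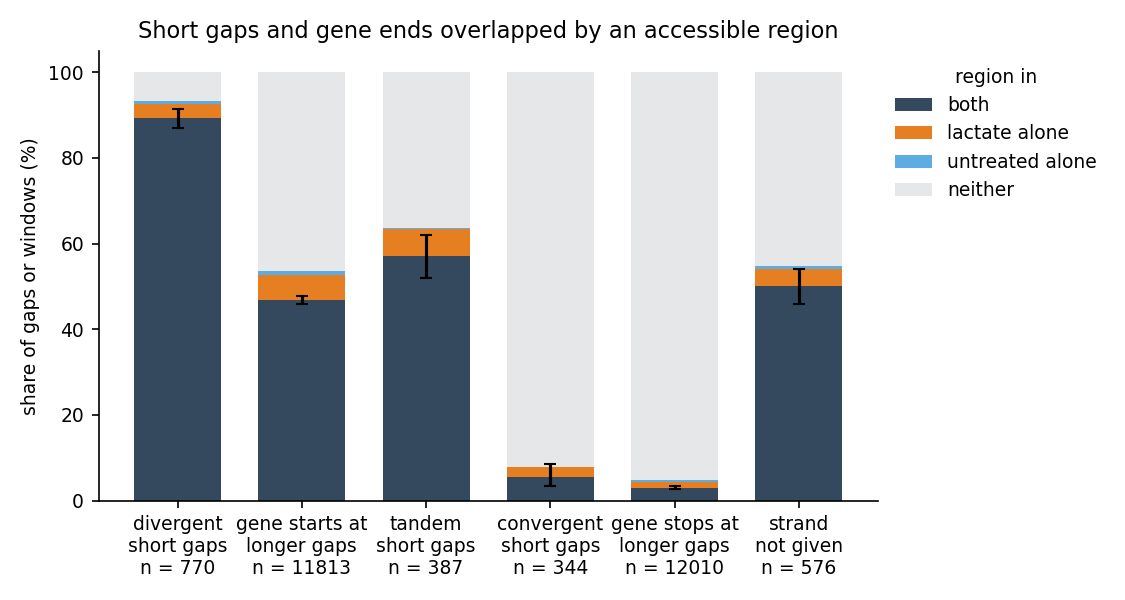
Share of short gaps, and of equally long windows just outside genes at longer gaps, overlapped by an accessible region in both libraries, in the lactate or the untreated library alone, or in neither. Bars are percentages, whiskers are exact 95% binomial intervals of the share in both libraries, and divergent gaps stand highest at 89.4% and convergent gaps among the lowest at 5.52%.

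Within an order, length mattered little for divergent gaps. The share open in both libraries was 87.6% at up to 250 bp, 93.1% above that and up to 500 bp, and 94.5% above 500 bp, with overlapping intervals. It was 47.0%, 59.7% and 60% for tandem gaps, again with overlapping intervals. For convergent gaps it was 2.33%, 6.17% and 8.21%. The limit of 1000 bp marked no step: among the gaps within 250 bp below it 120 of 263 (45.6%) were open in both libraries, and among those within 250 bp above it 97 of 211 (46.0%).

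At most divergent gaps a region covered the whole stretch between both starts, less often where the gap was longer. Some region spanned the entire gap at 89.5% of the 694 divergent gaps with a region in the untreated library and at 93.7% of 713 in the lactate library. From the shortest to the longest class this share was 94.8%, 82.9% and 61.5% in the untreated library and 98.4%, 89.8% and 62.3% with lactate. The strongest summit, the base under the most tags, lay inside the gap itself at 69.7% and 72.7%. At tandem gaps, whose median length is 479 bp against 171.5 bp, the entire gap was spanned at 30.2% in either library, and the summit lay inside the gap at 70.7% and 71.0%. Tandem summits lay on the side of the gene that starts there: they were nearer to the start than to the stop at 82.4% and 85.3% of the gaps, at a median position of -60.5 and -57 bp, where 0 is the start and negative values are upstream. At starts facing longer gaps the median position was close to that, -50 and -52 bp. The summit of a gap moved by a median of 25 bp between the libraries, and by at most 50 bp at 72.2% of 1216 gaps.

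Longer divergent gaps more often carried a summit at each start. A pair of summits, one within 150 bp of each start and a different one for each, was listed in the untreated library at 4.81% of gaps of up to 250 bp, 39.0% of those above that and up to 500 bp, and 51.9% of those above 500 bp. The lactate library gave 4.05%, 34.3% and 49.1%. The distance between the starts bounds these shares, since in a short gap a single summit lies near both starts. In the plot of summit positions the short gaps gave a single peak over the centre, and the longest gaps a broad profile with a dip there.

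**Figure D2:**
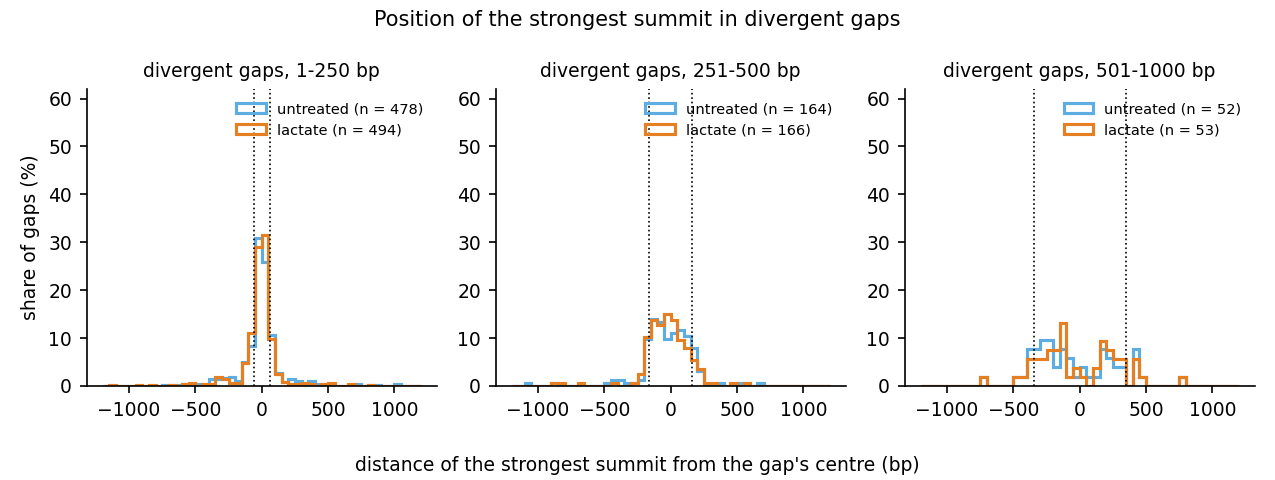
Distance of the strongest summit from the centre of the gap, in bp, at divergent gaps of 3 length classes, as a percentage of the gaps with a region in each library. Dotted lines mark the gene starts at the median gap length of the class; summits lay over the centre in the shortest gaps and towards the starts in the longest.

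Regions in short gaps were also taller and wider than other gene-end regions. The median summit carried 39 tags in the untreated library, against 28 at other gene-end regions, and 60 against 38 in the lactate library. Their median width was 827.5 bp in the untreated library (quartiles 560 and 1044.75), against 732 bp for other gene-end regions weighted to the same summit tags. In the lactate library it was 787 bp against 694 bp. Divergent gaps carried this difference: their regions had a median width of 878 and 829 bp, against 774 and 736 bp for regions at other gene starts of equal tags. Regions at tandem gaps had 724 and 728 bp, against 736 and 710 bp, and those at the few convergent gaps 537 and 482 bp, against 785 and 669 bp. A wide region touches a short gap more easily than a narrow one, so the rule favours wide regions. The part of this in the width difference was not tested. With the strongest summit required in the gap, the medians over all short gaps were 810 and 763 bp.

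The promoters that face each other across a divergent gap differed in sequence from other promoters. Promoter windows (RefSeq, GRCh38.p14, 250 bases before to 50 after the start) were matched for 13793 of the 19974 coding genes, 1406 of them at divergent gaps and 340 at tandem gaps. Each of 9 motifs was searched on both strands, and none of them contains another. Windows on both sides of a short divergent gap share sequence and are not independent. Where the gap is shorter than 250 bp (the median is 171.5 bp), the window also holds the start of the partner gene. What this adds to the shares was not tested. The ETS letters CCGGAAG were found in 29.7% (27.3 to 32.1) of promoters at divergent gaps, against 18.5% (17.6 to 19.5) of the 6839 other starts with a region within 1000 bp in both libraries and 12.5% of all other starts. The NF-Y letters CCAAT stood in 43.6% (41.0 to 46.2) against 37.7% (36.6 to 38.9), the NRF1 letters GCATGCG in 9.46% (7.98 to 11.1) against 6.29% (5.72 to 6.89), and the YY1 letters AAGATGG in 10.2% (8.64 to 11.9) against 7.12% (6.52 to 7.76). The TATA box TATAAA was rarer, at 3.56% (2.65 to 4.66) against 6.20% (5.64 to 6.80). So were the AP-1 letters TGANTCA, at 2.99% (2.16 to 4.02) against 4.93% (4.43 to 5.47).

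For the GC box GGGCGG the comparison depended on the reference and on the gaps taken. Promoters at divergent gaps held it in 72.5% (70.1 to 74.8), other open starts in 70.0% (68.9 to 71.1) and all other starts in 56.4%. The intervals of the first and the second overlap. The cyclic AMP element TGACGTC, at 6.54% against 5.92%, and the E-box CACGTG, at 10.95% against 9.84%, overlapped as well. These shares take all divergent gaps, open or not. The 1266 promoters at divergent gaps open in both libraries held the GC box in 74.4% (71.9 to 76.8), an interval above that of other open starts. The median GC content was 65.0% both at divergent gaps and at other open starts. The observed to expected ratio of CpG was 0.881 and 0.839. A match is a description of the letters and shows no binding. In all 13793 windows the shares were 14.6% for the ETS letters, 37.1% for CCAAT, 58.5% for the GC box, 5.33% for NRF1, 4.76% for the cyclic AMP element, 10.0% for the TATA box, 6.69% for YY1, 5.78% for AP-1 and 8.95% for the E-box.

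**Figure D3:**
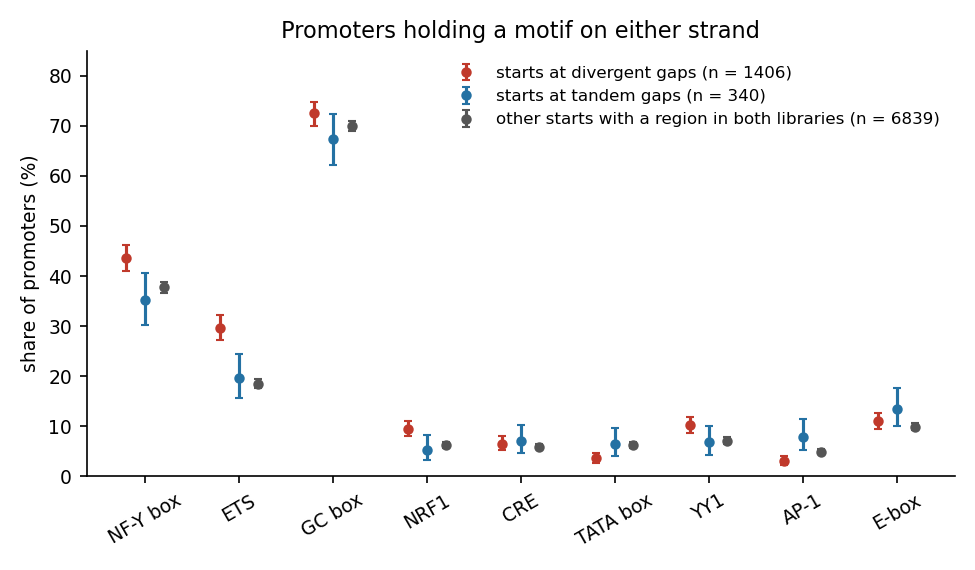
Share of RefSeq promoter windows holding each motif on either strand, in percent. Groups are starts at all divergent gaps, starts at all tandem gaps, and other starts with a region in both libraries. Gaps were taken open or not. Points are shares and whiskers exact 95% binomial intervals; the ETS, NF-Y, NRF1 and YY1 letters stand higher and the TATA and AP-1 letters lower at divergent gaps than at the other open starts.

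Among divergent gaps with a shared region and a matched promoter window for both genes, those with CCAAT in a promoter were taller. At the 306 gaps with the box the median summit carried 49 tags without and 84 with lactate, and at the 284 gaps without it 36.5 and 52. For the ETS letters the medians were close, at 40 and 64 tags at 209 gaps with them and 40 and 66 at 381 without. Greater height was not seen with CCAAT alone. The 28 gaps with TATAAA had medians of 62 and 87.5 tags, against 40 and 64 without it. The 82 gaps with the YY1 letters had 45 and 73.5, against 40 and 64. For none of the remaining motifs were the medians higher in both libraries. The SARS2-MRPS12 gap printed above carries CCAAT 4 times and GART-SON 3 times. The HARS1-HARS2 gap carries the ETS letters at both of its ends.

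The lactate library read higher at nearly all shared gap regions, by about as much as at other gene-end regions of the same height. The median summit of the 1256 shared regions carried 39 tags without and 63 with lactate. Divided by the library totals and then by each other, these heights gave a median ratio of 1.87 (1.82 to 1.90; quartiles 1.51 and 2.25). The ratio was above 1 at 1232 regions (98.1%) and not at 24. Of other shared gene-end regions 95.5% had a ratio above 1, and of all shared regions 88.7%. The median ratio was 1.79 at the 11309 other shared gene-end regions and 1.62 at regions away from gene ends. Since the ratio was higher at taller summits, each region's ratio was also divided by the median of other gene-end regions of similar height, in 20 bins of summit tags. This relative ratio had a median of 1 (0.972 to 1.015) and quartiles of 0.827 and 1.20. The median of the gap regions exceeded that of the other gene-end regions in 7 of 20 bins.

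**Figure D4:**
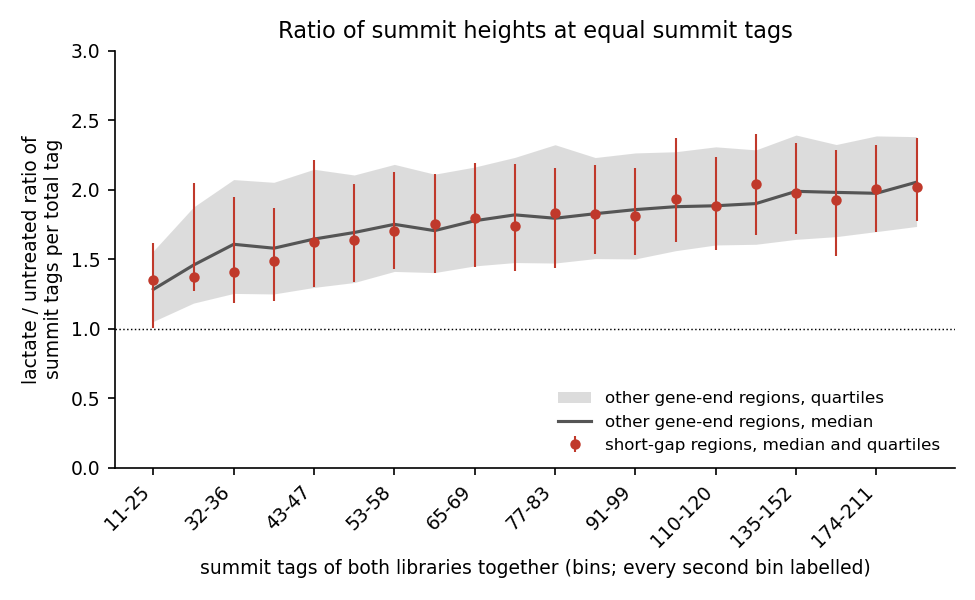
Lactate to untreated ratio of summit tags per total tag, by summit tags of both libraries together (20 bins). The line and band give the median and quartiles of other gene-end regions, and the points and bars those of short-gap regions; both rise with height and the points follow the line.

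**Figure D5:**
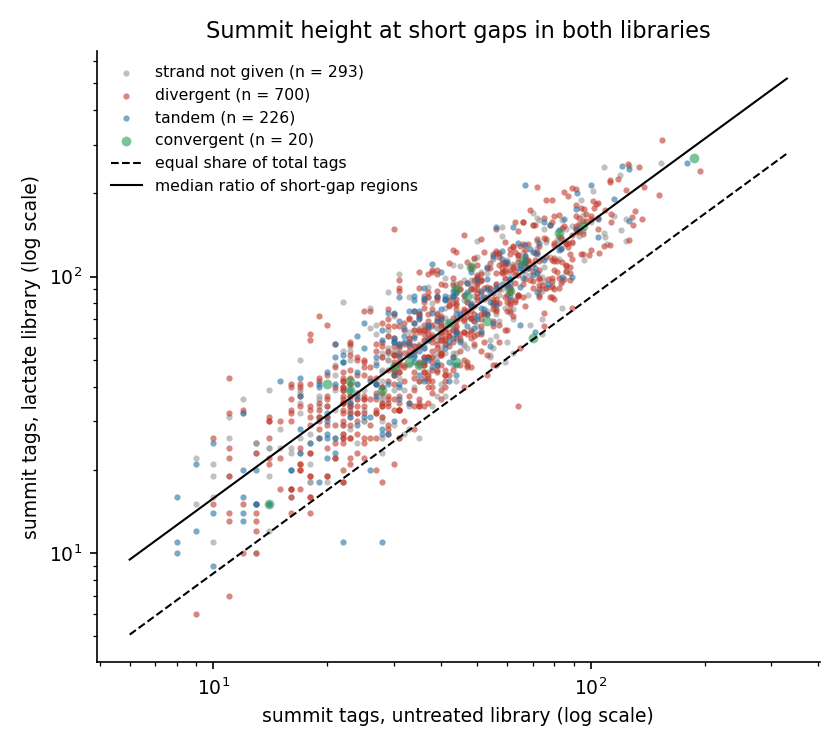
Summit tags in the untreated (horizontal) and the lactate library (vertical) at each gap with a shared region, on log scales, coloured by gene order. The dashed line marks equal shares of the total tags and the solid line the median ratio of 1.87; most points lie above the dashed line whatever the order of the genes.

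Single gap regions departed from this common ratio in both directions. A relative ratio of at least 1.5 was found at 98 gap regions (7.80%; 6.38 to 9.43), where the background at other gene-end regions was 9.37%. A relative ratio of at most 1/1.5 was found at 83 (6.61%; 5.30 to 8.13), against a background of 8.57%. Counting error alone is large at these depths. The interval of the single region lay above the reference at 78 gap regions (6.21%) and below it at 96 (7.64%), against 5.62% and 6.07% of other gene-end regions. The share past the 1.5 limit was thus lower at gap regions and the share past its own interval higher, gap regions had more tags (a median of 103 of both libraries, against 77), and neither difference was tested. By gene order the median relative ratio was 0.971 (0.945 to 1.004) at divergent, 1.02 (0.985 to 1.10) at tandem and 0.996 (0.871 to 1.13) at the 20 convergent gaps with a shared region.

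The relative ratio moved with the base composition of the promoters. Divergent gaps with a shared region were cut into 3 groups of similar size by the mean GC content of their promoter windows. The median relative ratio was 0.898 (0.857 to 0.953) in the lowest group, up to 61.7% GC, then 1.02 (0.945 to 1.06), and 1.07 (1.012 to 1.117) in the highest, from 68.3% GC. Other gene starts in the same GC ranges gave 0.974, 1.02 and 1.05, so the order was the same there. Gaps with a GC box had a median of 1.012 (0.963 to 1.04) and gaps without one 0.905 (0.838 to 0.962). The part that GC content had in the single values given below was not tested.

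The tallest gaps belonged to genes of varied function. The highest sum of both libraries was at ATG2A-PPP2R5B, a divergent gap of 363 bp at chr11:64917210-64917572 between a lipid transfer protein of autophagy and a regulatory subunit of protein phosphatase 2A, with 154 tags without and 313 with lactate. OSGEP-APEX1, which joins a tRNA-modifying enzyme and the main abasic-site endonuclease, came after PLCB3-BAD and RIN1-BRMS1 in that sum, at chr14:20454813-20455225, with 194 and 240. Its relative ratio, 0.713 (0.588 to 0.866), was the lowest of the 10 tallest. ERP44-INVS and ALDH6A1-LIN52, both divergent, read 134 and 250 tags and 125 and 255 tags. Among tandem gaps RIN1-BRMS1 read 180 and 258, PITPNM1-CDK2AP2 121 and 252, and SPAG7-CAMTA2 126 and 244. CCDC85B-FOSL1, next to the gene of an AP-1 subunit, read 153 and 258, although only the lactate region reached into the gap. Its lactate summit, at 65890689, lay outside the gap, which starts at 65891636. Summits also lay outside the gap at PLCB3-BAD, PITPNM1-CDK2AP2 and SPAG7-CAMTA2, and at its very edge at RIN1-BRMS1. A gap takes the height of the tallest shared region that touches it. RANBP10-TSNAXIP1 read 126 and 252. PLCB3-BAD, a convergent gap described below, completes the 10. All 10 were higher in the lactate library after division by the totals, with ratios from 1.47 to 2.47.

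Of these 10 gaps, 5 lie within 3.24 Mb of chromosome 11, between 64269453 and 67506496. The stretch is bounded by tall gaps, so its own 23 gaps, with medians of 100 and 139 tags against 39 and 63 elsewhere, are a description. Without those 5, the medians of the other 18 were 75.5 and 134. Higher as well were the 184 shared regions of the stretch that lie away from gene ends, with 51 and 74.5 tags against 21 and 28 elsewhere. Height there was thus not seen at gaps alone, and the number of copies of the stretch in these cells was not tested. The relative ratio of its gaps had a median of 1.05.

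The textbook bidirectional pairs gave a cross-section of levels. Of 21 pairs listed, 14 form a short gap under the rule. The basement membrane collagens were low: 13 and 12 tags at COL4A1-COL4A2, 12 and 15 at COL4A6-COL4A5 and 13 and 13 at COL4A4-COL4A3, where the untreated region stopped short of the gap. The pairs of housekeeping genes were several times higher. HSPD1-HSPE1 read 50 tags without and 101 with lactate, HARS1-HARS2 57 and 122, and SARS2-MRPS12 64 and 113. GART-SON read 95 and 121, with a relative ratio of 0.734 (0.557 to 0.971), and TCP1-MRPL18, a cytosolic chaperonin subunit with a mitochondrial ribosomal protein, 85 and 98, with 0.692 (0.512 to 0.936). Both of these intervals lie below 1, the level of other gene-end regions of that height. TAP1-PSMB9, the peptide transporter and immunoproteasome subunit of antigen presentation, read 73 and 93. SIRT3-PSMD13 read 45 and 54, NPAT-ATM 35 and 64, and PRKDC-MCM4 74 and 100.

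The longest of these gaps, PDCD10-SERPINI1 at 828 bp, was also the tallest, with 118 tags in the untreated library and a ratio of 2.27 (1.81 to 2.86). SURF1-SURF2, a gap of 62 bp beside a cytochrome oxidase assembly factor, had a region of 40 tags in the lactate library and none in the untreated list.

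Families were taken by gene symbol, and their counts stand beside the 58.5% of all gaps open in both libraries. Differences between families were not tested, and the families differ in the order of their genes. Histone genes had a region in both libraries at 19 of 20 gaps (75.1 to 99.9%), of which 11 are divergent and 2 convergent, led by H2BC12-H2AC12 with 93 and 140 tags and H2BC11-H2AC11 with 89 and 141; copies of these genes are near-identical, and how many tags unique mapping left out there was not tested. DNA repair genes had one at 18 of 22, RNA polymerase subunits at 12 of 15, mitochondrial ribosomal proteins at 27 of 34 and respiratory complex I genes at 18 of 24. Aminoacyl-tRNA synthetases had one at 11 of 15 and cytosolic ribosomal proteins at 24 of 34 by symbol, or 23 of 31 without the 3 gaps that border only an S6 kinase gene of like symbol. Zinc finger genes stood near the share of all gaps with 36 of 61, as did transmembrane protein genes with 35 of 58. Proteasome genes had 10 of 20. Solute carriers had 35 of 75 (35.1 to 58.6%), of which 24 are divergent and 20 convergent. Olfactory receptor genes, which are expressed mainly in sensory neurons of the nose, had none of 7 (0 to 41.0%), of which 1 is divergent and 3 are convergent. Keratin and PRAME family genes border no short gap.

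The tallest gaps of these families were FAU-MRPL49 (103 and 183 tags), POLR2I-TBCB (101 and 204), PSME2-RNF31 (91 and 166), RPL41-ZC3H10 (91 and 176), TMEM53-ARMH1 (87 and 196) and CDK5-SLC4A2 (91 and 182). The tallest complex I gap was TEPSIN-NDUFAF8, with 56 and 149 tags. Both protocadherin gaps, PCDHB9-PCDHB10 and PCDHB16-PCDHB9, were open and low, with 12 and 14 and with 8 and 10 tags.

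The relative ratio was also read by family. Of 18 shared DNA repair gaps 6 had a relative ratio of at least 1.5 and 1 of at most 1/1.5, with a median of 1.24, beside 7.80% and 6.61% of all gap regions. Counted among the 6, TMEM167A-XRCC4, next to a factor of DNA end joining, read 31 and 97 tags with a relative ratio of 1.95 (1.29 to 3.02), and XRCC3-ZFYVE21, next to a recombination factor, 31 and 91 with 1.83 (1.21 to 2.85). The others were RAD17-MARVELD2, VPS29-RAD9B, TEX14-RAD51C and XPO5-POLH, and the intervals of the last pair of these gaps (0.935 to 2.65 and 0.991 to 2.43) include 1. For tRNA synthetases 3 of 11 were high and none low, with a median of 1.28: RARS2-ORC3 read 35 and 104, VWA7-VARS1 37 and 92, and TARS2-ECM1 17 and 43, with an interval of 0.981 to 3.29 that includes 1. Transmembrane protein genes had 5 high and 1 low of 35, with a median of 1.14, and solute carriers 5 high and 4 low of 38, with a median of 0.930. Mitochondrial ribosomal proteins had 1 high, MRPL50-ZNF189 with 72 and 210 tags, and 4 low of 27, with a median of 0.944. Complex I genes had 1 high and 3 low of 18, with a median of 0.952. RNA polymerase subunits had none of either among 12, and histones had 1 low among 19, with a median of 0.885. These counts are small, and the members of a family were chosen by symbol alone.

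The single gap with the highest relative ratio, among those with at least 60 tags, was TTC13-ARV1, between a tetratricopeptide repeat gene and a gene of sterol transport in the endoplasmic reticulum. Its summit carried 30 tags in the untreated and, with lactate, 149, a relative ratio of 2.98 (2.00 to 4.57). OXLD1-CCDC137 followed with 19 and 72 tags (2.42), then SCNN1D-ACAP3 with 22 and 81 (2.32), ATAD2B-UBXN2A with 18 and 62 (2.27), IRS2-LOC124903211 with 20 and 67 (2.17) and RWDD4-TRAPPC11 with 18 and 59 (2.16). At the other end ANKRA2-UTP15, beside a gene of ribosome assembly, read 64 tags untreated and 34 with lactate, a relative ratio of 0.339 (0.217 to 0.522). Its ratio of 0.629 (0.403 to 0.969) was 1 of only 2 among all gap regions whose interval lay below 1. RSRC2-KNTC1 read 74 and 62 (0.499), COG4-SF3B3 35 and 26 (0.516), C5-CNTRL 89 and 77 (0.517), and ST13-XPNPEP3 59 and 49 and HNRNPUL2-TTC9C 75 and 66 (0.524 each). These gaps were picked as the extremes of the same values, so their ratios are descriptions. Of the 12 gaps, 5 of the 6 highest and 3 of the 6 lowest are known to be divergent.

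Hardly any gap region was listed in one library alone. Of 1254 gap regions of the untreated list 8 had no overlapping lactate region, 0.638%, where the background at other gene-end regions was 6.27% and, at equal summit tags, 3.08%. Of 1318 gap regions of the lactate list 71 had no overlapping untreated region, 5.39%, where the background was 17% and, at equal summit tags, 7.46%. Put as shares overlapped, this was 99.4% (98.7 to 99.7) against 96.9% and 94.6% (93.3 to 95.8) against 92.5%, so gap regions were shared slightly more often than other gene-end regions of that height. Against gene starts alone the lactate difference was 1.32 percentage points, and among regions of at least 5-fold enrichment 1.90, both with an interval that reached below 0. Gap regions were also wider, and the part of width in this sharing was not tested. The regions of one library alone were low, with medians of 15 and 21 tags.

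The strongest of the lactate library alone were ALKBH1-SLIRP, with 21 tags and the authors' fold enrichment of 10.7 over the local background, ATP5ME-MYL5 (30 tags, 8.56), CENPB-CDC25B (28 tags, 7.51), PRAC2-HOXB13 (18 tags, 7.14) and R3HCC1-LOXL2 (17 tags, 7.09). They stand beside genes of mitochondrial RNA stability, ATP synthase, the centromere and a cell cycle phosphatase, a homeobox factor and a collagen-crosslinking oxidase. The strongest of the untreated library alone were weaker: DHX32-FANK1 (19 tags, 4.37), SAMD1-PRKACA (12 tags, 4.09), APOBEC3C-APOBEC3D (9 tags, 3.55), CCR10-CNTNAP1 (34 tags, 3.31) and XYLB-ACVR2B (9 tags, 3.09). The gaps R3HCC1-LOXL2, SAMD1-PRKACA and XYLB-ACVR2B nevertheless held a region in each library, since a gap can hold several regions.

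Counted by gap, 81 gaps (3.90%) held a region of the lactate library alone and 11 (0.53%) of the untreated library alone. The background at gene ends facing longer gaps, in windows of 266 bp, was 3.61% and 0.62%. At gene starts facing longer gaps, in windows of 172 bp, it was 5.92% and 0.83%. With lists of equal length, a setting that cut only the lactate list, the counts of gaps were 40 and 65. Under each other alternative the lactate count was the larger, such as 221 and 9 at a fold of at least 5. It was 113 and 8 at a −log10 p of at least 7, and 152 and 89 where the strongest summit had to lie in the gap. The cause of these shifts was not tested. At 18 of the 81 and 6 of the 11 the region did overlap one of the other list, outside the gap. The 25 divergent gaps open in the lactate library alone had promoters richer in GC, with a median of 76.3% over 43 windows, against 65.0% at those open in both. CCAAT was found in 16.3% (6.81 to 30.7) of the former and 45.9% (43.1 to 48.7) of the latter. Windows facing each other across a gap share sequence, so these intervals are too narrow. Other starts with a region in the lactate library alone were not set beside them.

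Convergent gaps with a region were too few to describe beyond single cases. Of 344, 27 held one in the lactate library, and the start of another listed gene lay under that region at 2 of them, GPR137 at PLCB3-BAD and GBF1 at ELOVL3-PITX3. PLCB3-BAD, between a phospholipase and a pro-apoptotic BCL2 family member, was the tallest, with 187 tags without and 268 with lactate. NSD1-RAB24 read 95 and 152 and RABEPK-HSPA5, next to the chief chaperone of the endoplasmic reticulum, 82 and 144. These 2 gaps and the next were picked after their values were seen. In the lactate library the strongest summit lay inside the gap at 15 of the 27. It lay outside the gap in both libraries at PLCB3-BAD, NSD1-RAB24 and RABEPK-HSPA5, so their tags were counted beside the gap. TDRD12-SLC7A9 read 70 and 60, the lowest relative ratio of its class at 0.534; its region was 219 bp wide with a single summit in both lists, one of the narrow regions left out in an alternative.

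At 51 divergent gaps, 6.62%, neither library had a region. They included pairs expressed in few tissues, named here after the list was seen: OR11A1-OR2H1 (olfactory receptors), GABRA4-GABRB1 (subunits of a neuronal receptor), DUOX2-DUOXA2 (thyroid and mucosal oxidase and its maturation factor) and MAGEA2-CSAG3 (testis antigens). Some hold widely expressed genes, such as ASPRV1-PCBP1, CLCN2-POLR2H and RAB24-PRELID1. Gaps of either kind can belong to near-identical copies, as BOLA2B-SLX1A does, where uniquely mapped tags can be few. How many of the 51 do was not counted. At the 87 promoter windows of these gaps the GC box stood in 41.4% (30.9 to 52.4) and the ETS letters in 14.9% (8.20 to 24.2), below the 74.4% and 31.1% at divergent gaps open in both libraries. All other starts, open or not, held them in 56.4% and 12.5%. Other starts without a region were not counted apart, so a low share was not shown to be particular to these gaps.

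Regions at the gene ends of cell type markers were also counted. A region in both libraries lay at an end of 10 of 12 squamous keratinocyte markers, with none at KRT14 and TP63, of 3 of 7 fibroblast markers, of 3 of 6 leukocyte markers and of none of 5 endothelial markers. No share over all coding genes stands beside these counts, so they neither bear out nor contradict the cell label. Accessibility at a gene end does not measure expression.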

How the data were processed

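ATAC-seq of CAL27 cells was analysed from the peak lists that the authors deposited, 1 per library. Tools were fastp 0.20.0 and BWA 0.7.12, with alignment to hg38 and MACS2 2.1.0 for peaks, per the submitters' processing notes. The version in the headers of the files is MACS 2.2.7.1. Per the file headers, peaks were called per library without a control, at a q of 0.05, with a shift of 100 bp and an extension of 200 bp, from files named as uniquely mapped and deduplicated. The deposited pileup is a signal, the unscaled number of extended tags over a summit, and the deposited fold enrichment is a ratio to the local background, used only to rank or filter regions.

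A region with several summits counted once, with its highest pileup. Summit tags were divided by the header's tag totals. The relative ratio divides by the median of other gene-end regions in 1 of 20 bins of summit tags, and a share at equal tags weights those regions to the bins of the gap regions. Ratios have exact conditional Poisson intervals, shares exact Clopper-Pearson intervals and medians order-statistic intervals, at 95%. Strand came from RefSeq promoter entries for 15813 of 19974 coding genes. Python 3.11.15, numpy 2.4.6, pandas 2.3.3 and scipy 1.17.1 were used, and the scripts were tested on simulated data.

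The members, gene pairs, families and motifs were chosen with earlier results of these data known. Gaps named are the 10 tallest, the 6 highest and 6 lowest relative ratios with at least 60 tags, the 5 strongest regions of each library alone, listed textbook pairs, and up to 3 of the tallest per family, not all of which are printed. Other gap lengths, gene models, peak thresholds, overlaps, comparison sets and bins were tried. No library was replicated, so nothing was tested between groups.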

Additional observations from a re-analysis of the deposited data

How the results depend on the processing

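The order of the gene classes (divergent above tandem above convergent) held under each alternative tried. The share of all gaps open in both libraries was 63.3% at gaps of at most 500 bp, 64.1% at 250 bp, 55.5% at a −log10 p of at least 7, 46.2% at a fold of at least 5, 55.9% with lists of equal length and 36.7% where the strongest summit had to lie in the gap. Divergent gaps gave 76.5% at a fold of 5, 86.4% with equal lists and 57.4% by summit. These alternatives for the separate orders were added after the data had been seen. Tandem gaps gave 47.0% at 250 bp, 51.2% at the −log10 p of 7, 38.5% at the fold of 5 and 36.4% by summit, and convergent gaps 2.33% at 250 bp. The untreated share overlapped was 99.8% at gaps of at most 500 bp and also at 250 bp (99.79 and 99.84), and 94.7% with equal lists. The lactate share was 96.0% at 500 bp, 92.1% at the −log10 p of 7, 82.0% at the fold of 5 and 97.6% with equal lists. The excess of the untreated share over other gene-end regions of equal tags was 2.44 percentage points, and 2.88 at 250 bp, 1.20 at the fold of 5, 6.04 with equal lists and 2.92 where the overlap had to reach 50% of the shorter region. The lactate excess was 2.07, and 1.32 against gene starts alone and 1.90 at the fold of 5, both with intervals that reach below 0. Median width in the untreated library was 892 bp at the fold of 5, and in the lactate library 818 bp there, 813 bp with equal lists and 763 bp by summit. Of 108 values in all, 79 stayed within the interval of the reported value. Among them was each value of the median ratio and of the median relative ratio. The excess in the share overlapped kept its sign throughout, and a reversal was looked for in that excess alone. With equal lists the gaps open in one library alone changed from 81 to 40 for lactate and from 11 to 65 for untreated. Under each other alternative lactate held more of them. The cause of these and the other shifts was not tested. No paired analysis was possible because the design has a single library per condition.

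Depth limits single gaps: at NPAT-ATM, with 35 and 64 tags, near the median of all gaps, the relative ratio of 1.17 has an interval of 0.761 to 1.81. Height is the summit chosen as highest in each library, and the depth of the libraries differs.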
